A study of Mus musculus with 8 samples.

Results

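Transcripts of the NF-kB transcription factor family and its feedback inhibitors were measured in plasmacytoid dendritic cells (pDC) and conventional dendritic cells (cDC) of leukemia-bearing mice treated with panobinostat, a drug that blocks histone deacetylases, or with vehicle. The set was chosen by gene symbol and holds 10 of the 27179 genes in the deposited count table. It has the 5 subunit genes Nfkb1, Nfkb2, Rel, Rela and Relb, the inhibitor genes Nfkbia, Nfkbie, Nfkbiz and Bcl3 of the IkB family, and Tnfaip3, which encodes the ubiquitin-editing enzyme A20. All 10 passed the filter on low counts, which left 14238 genes for testing. The 4 groups were pDC under panobinostat, pDC under vehicle, cDC under panobinostat and cDC under vehicle, each with 2 libraries. All cells came from spleens of C57BL/6 mice that carried leukemia and had 2 days of treatment, and each library was made from a pool of 3 to 6 mice. No group without leukemia was analysed here, so every group shares the disease. The sources used here do not give the dose, the age of the mice, the leukemia line or the sorting gates. The extraction text speaks of sorted leukemia cells whereas the titles name pDC and cDC. With bulk libraries, fewer cells of a type and less RNA per cell cannot be told apart.

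NF-kB subunits work as dimers that inhibitor proteins hold in the cytoplasm of resting cells. In the canonical pathway, signals from toll-like receptors, TNF receptors or the IL-1 family lead to destruction of the inhibitor IkB-alpha, the product of Nfkbia, and free dimers of p50 (made from the Nfkb1 product) with RelA or c-Rel. In the non-canonical pathway, receptors such as CD40 and the lymphotoxin beta receptor drive processing of the Nfkb2 product to p52, which pairs with RelB. Several subunit and inhibitor genes are themselves NF-kB targets, so the pathway feeds back on its own transcripts. In dendritic cells, RelB is known for its part in cDC development and maturation.

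Total counts were 13124861 to 20657429 reads per library. The pDC panobinostat replicate 2 stood apart, with the lowest total, 10745 genes detected against 14927 to 19950 in the other libraries, and a correlation across genes of 0.801 with its replicate against 0.965 to 0.973 within the other groups. Members' values without this library are given where leaving it out changed a call or moved a called value by over 1.5 times. The 12 pDC marker genes summed to 18500 to 27500 CPM in pDC under panobinostat and 14800 to 18500 CPM in pDC under vehicle, against 211 to 320 CPM in the cDC libraries. CPM is the read count scaled to library size, computed by the cpm function of edgeR on TMM-scaled library sizes. The 7 cDC markers, which include MHC class II genes that pDC also express, summed to 28000 to 67400 CPM in pDC and 56800 to 86100 CPM in cDC. Zbtb46, a transcription factor of cDC, had 4.36 and 19.6 CPM in pDC under panobinostat and 2.37 and 8.27 CPM in pDC under vehicle, against 200 and 186 CPM in cDC under panobinostat and 137 and 154 CPM in cDC under vehicle. The labelled cell types therefore matched their defining markers. Markers of other cells differed between the cell types as well. All 10 macrophage markers were below 0 in the fitted pDC over cDC log2 fold change under both treatments, with sums of 0 to 44.5 CPM in pDC against 297 to 563 CPM in cDC, and all 10 NK cell markers were too, with sums of 2.12 to 19 CPM against 5.13 to 254 CPM. Sums and single genes parted in other lists, where a few abundant genes carried the sum. The 7 monocyte markers summed to 2170 to 7330 CPM in pDC against 1060 to 1240 CPM in cDC, yet 5 of the 7 were lower in fitted value in pDC, with median log2 fold changes of -1.40 under panobinostat and -1.93 under vehicle. The 10 T cell markers summed to 290 to 895 CPM in pDC against 26.5 to 95.3 CPM in cDC, yet of 9 tested 5 were below 0 under panobinostat and 7 under vehicle, with medians of -0.32 and -0.996. The 7 cDC1 markers summed to 2280 to 4390 CPM in pDC against 2330 to 4100 CPM in cDC, yet 5 of the 7 were below 0, with medians of -2.60 under panobinostat and -3.00 under vehicle. The 7 cDC2 markers summed to 1250 to 2670 CPM in pDC against 687 to 1060 CPM in cDC, with 5 below 0 under panobinostat and 4 under vehicle and medians of -0.40 and -0.22. Stem and progenitor markers summed to 29.3 to 71.6 CPM in pDC against 267 to 411 CPM in cDC, with medians over the 8 tested of -0.16 under panobinostat and 0.97 under vehicle. Plasma cell markers summed to 477 to 1230 CPM in pDC against 280 to 489 CPM in cDC, with medians of 3.04 and 1.71. Sums of B cell markers (119 to 491 CPM) and neutrophil markers (0.101 to 8.48 CPM) overlapped between the cell types. The part of these cells in the results was not tested.

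The clearest difference in the set lay between the cell types. Relb and Nfkb2, the genes of the non-canonical pair, were lower in pDC than in cDC under both treatments, and Nfkb1 and Rel were also lower in pDC under panobinostat. Under panobinostat, 0 of the 10 genes were higher and 4 were lower in pDC at an adjusted p of at most 0.05, where 7.76% and 10.2% of all 14238 genes were called higher and lower (18% in either direction). Under vehicle, 0 were higher and 2 were lower, where 5.01% and 4.71% of all genes were called (9.73% in either direction). An unadjusted p of at most 0.05 was reached by 6 of the 10 under panobinostat, beside 34.8% of all genes, and by 5 under vehicle, beside 24.5%. The median log2 fold change of the set was -1.24 under panobinostat and -0.70 under vehicle, beside -0.18 and 0.02 over all genes tested. Without pDC panobinostat replicate 1 or replicate 2, the median under panobinostat was -1.62 or -1.12, beside -1.20 or -0.12 over all genes tested. Adjusted p-values are from the quasi-likelihood test of edgeR with Benjamini-Hochberg adjustment over all genes, unless another tool is named, and errors of log2 fold changes are standard errors.

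For panobinostat against vehicle, no member passed the threshold in edgeR. In pDC, edgeR called 0 of the 10 genes, beside 0.0913% of all genes (0.014% higher and 0.0773% lower), and 3 of the 10 had an unadjusted p of at most 0.05, beside 14.9% of all genes. DESeq2 called 1 gene, Nfkb2, beside 6.42% of all genes, and limma-voom called 0, beside 0%. In cDC, edgeR called 0 of the 10, beside 0% of all genes, with 0 at an unadjusted p of at most 0.05 beside 1.45% of all genes, and DESeq2 and limma-voom also called 0, beside 0.105% and 0% of all genes. For the panobinostat effect in pDC minus that in cDC, edgeR called 0, beside 0.00702% of all genes, with 2 at an unadjusted p of at most 0.05 beside 7.77%, DESeq2 called Nfkb2 alone, beside 2.04% of all genes, and limma-voom called 0, beside 0%. The median log2 fold change was -0.37 in pDC and -0.09 in cDC, beside -0.14 and 0.0028 over all genes. The cDC median depended on single libraries, at -0.043 without cDC panobinostat replicate 1, -0.17 without cDC panobinostat replicate 2, -0.053 without cDC vehicle replicate 1 and -0.19 without cDC vehicle replicate 2. The comparisons share libraries, so their values are not independent of each other.

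**Figure D1:**
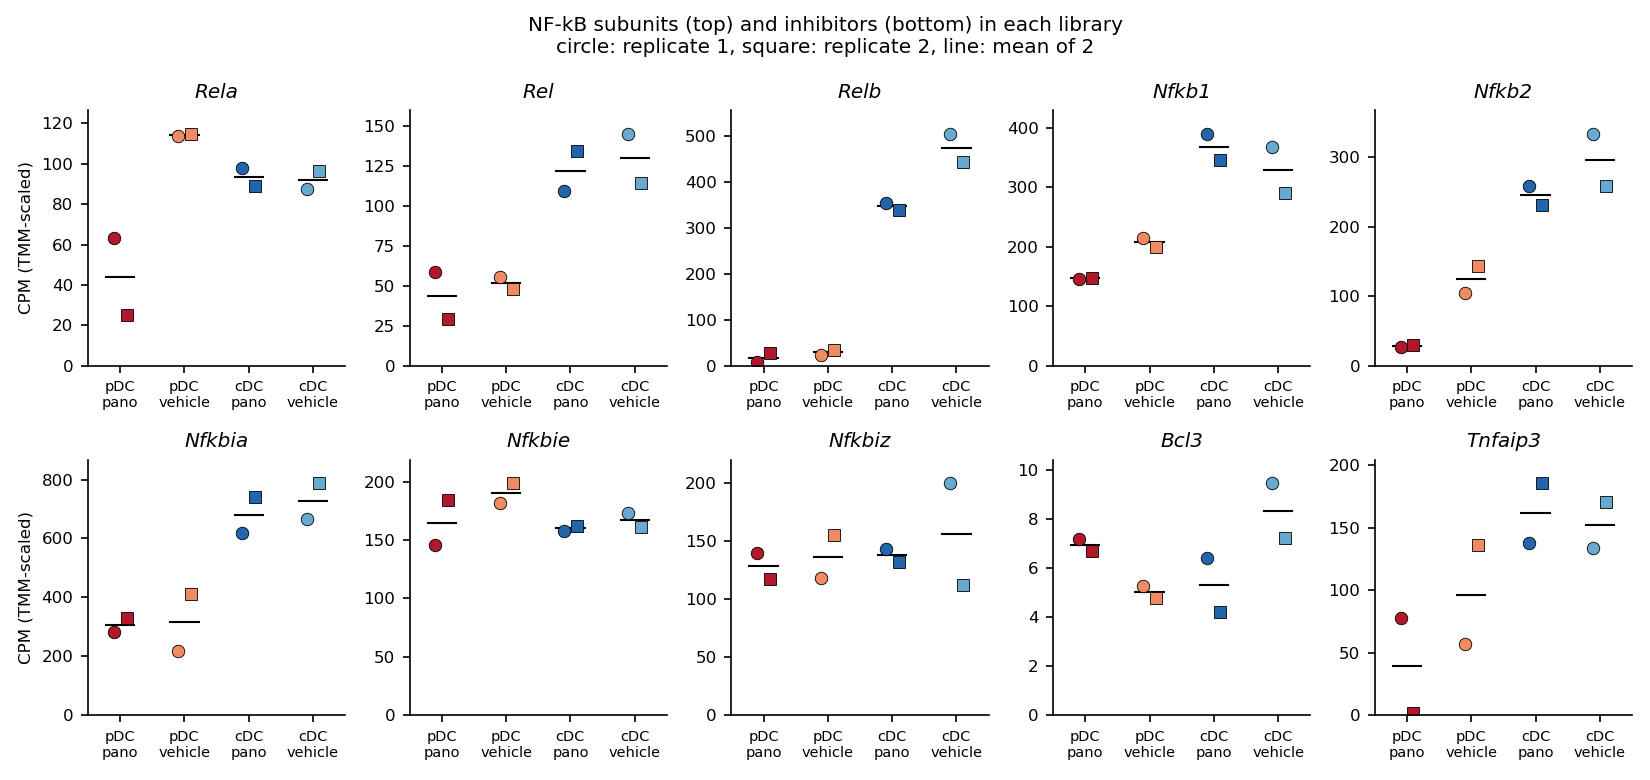
TMM-scaled CPM of each gene in each library, with circles for replicate 1, squares for replicate 2 and a line at the mean of the 2, for pDC under panobinostat, pDC under vehicle, cDC under panobinostat and cDC under vehicle. Relb sits between 6.94 and 34.7 CPM in the pDC libraries and between 339 and 506 CPM in the cDC libraries, and the panobinostat pDC replicate 2 has 1.49 CPM of Tnfaip3.

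Upstream windows are shown for 3 genes that differ in their fitted value for panobinostat in pDC: Nfkb2 and Rela had the lowest values among the subunits, and Nfkbia had a value near 0. The sequences are the 250 bases before an annotated transcription start, from RefSeq on GRCm38.p6 (mm10). They are written 5′ to 3′ on the strand of the gene. For Nfkb2 and Rela the start used lies inside the annotated gene, so these windows hold bases of the gene itself. Capitals mark matches to the kappaB consensus, which is GGG and CC around a purine, any base, A or T and 2 pyrimidines. A looser form, GGG and CC around any 5 bases, was searched as well, and it contains every match of the consensus. Both strands were searched. Nfkb2 has 3 annotated windows, of which the one with the most matches, at chr19:46304487-46304736 on the plus strand, is printed. The windows at chr19:46305445-46305694 and chr19:46305680-46305929 hold 1 match each. The printed window holds 3 kappaB matches at 39, 38 and 11 bases before the start, the first 2 overlapping each other.
Nfkb2: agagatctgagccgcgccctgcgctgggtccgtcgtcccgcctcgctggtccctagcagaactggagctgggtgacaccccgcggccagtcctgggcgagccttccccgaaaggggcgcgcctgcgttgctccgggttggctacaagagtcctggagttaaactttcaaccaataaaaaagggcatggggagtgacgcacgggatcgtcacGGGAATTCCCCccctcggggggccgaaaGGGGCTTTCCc
The window of Nfkbia, at chr12:55492648-55492897 on the minus strand, holds 1 match at 29 bases before the start.
Nfkbia: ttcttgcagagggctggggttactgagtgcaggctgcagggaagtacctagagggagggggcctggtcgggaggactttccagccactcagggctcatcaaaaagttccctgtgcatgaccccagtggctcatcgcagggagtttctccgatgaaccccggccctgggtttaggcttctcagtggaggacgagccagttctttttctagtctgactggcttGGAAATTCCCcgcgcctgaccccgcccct
The window of Rela, at chr19:5637291-5637540 on the plus strand, holds 0 matches.
Rela: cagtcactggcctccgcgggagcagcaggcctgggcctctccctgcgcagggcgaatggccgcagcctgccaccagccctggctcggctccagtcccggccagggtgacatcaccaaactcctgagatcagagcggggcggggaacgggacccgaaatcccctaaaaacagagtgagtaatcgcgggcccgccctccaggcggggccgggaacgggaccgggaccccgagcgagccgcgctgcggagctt
Windows were found for 7 of the 10 genes, and the entries missing were those of Nfkb1, Relb and Nfkbiz. The kappaB consensus occurred in a window of 5 of the 7 (Nfkb2, Rel, Nfkbia, Nfkbie and Tnfaip3), beside 3.9% of all 32851 windows and 4.46% of the genes with a window. The looser form occurred in 7 of the 7, beside 45.8% of all windows. A match describes the letters of the window only.

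Relb, whose product pairs with p52 and holds a transactivation domain, showed the widest gap between the cell types. It had 6.94 and 28.1 CPM in pDC under panobinostat, against 355 and 339 CPM in cDC under panobinostat. Under vehicle it had 22.9 and 34.7 CPM in pDC, against 506 and 445 CPM in cDC. No pDC library came near a cDC library, although the pDC libraries under panobinostat were themselves far apart. Relb was 19.9-fold lower in pDC than in cDC under panobinostat (log2 fold change -4.32 ± 0.67, edgeR adjusted p = 0.0112) and 16.5-fold lower under vehicle (-4.05 ± 0.66, edgeR adjusted p = 0.0168). Under panobinostat the edgeR call was lost without cDC panobinostat replicate 1 (-4.29, adjusted p = 0.063), without cDC panobinostat replicate 2 (-4.35, adjusted p = 0.0592) and with the 4 panobinostat libraries alone (-4.36, adjusted p = 0.116). Under vehicle it was lost without pDC vehicle replicate 1 (-3.77, edgeR adjusted p = 0.146), without pDC vehicle replicate 2 (-4.42, edgeR adjusted p = 0.107), without cDC vehicle replicate 1 (-3.94, edgeR adjusted p = 0.0889) and without cDC vehicle replicate 2 (-4.14, edgeR adjusted p = 0.0804). In these fits the log2 fold change lay between -4.42 and -3.77. The size under panobinostat depended on the pDC library, at -3.63 without pDC panobinostat replicate 1 (edgeR adjusted p = 0.000304) and -5.70 without pDC panobinostat replicate 2 (edgeR adjusted p = 0.000497). The 9 mature DC markers that are not in the set, such as Ccr7 and Fscn1, ran the same way, with sums of 287 to 325 CPM in pDC under panobinostat against 1790 to 2340 CPM in cDC under panobinostat, and 199 to 202 CPM in pDC under vehicle against 2690 to 2840 CPM in cDC under vehicle. Their part in the difference of Relb was not tested.

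Panobinostat against vehicle gave a fitted log2 difference of Relb of -0.73 ± 0.59 in pDC (edgeR adjusted p = 0.587), where the libraries of the groups overlapped, and -0.46 ± 0.58 in cDC (edgeR adjusted p = 1), where both panobinostat libraries lay below both vehicle libraries. The pDC value rested on which panobinostat library was kept. Without pDC panobinostat replicate 2 it was -2.11 ± 0.33 (edgeR adjusted p = 0.0288), and without pDC panobinostat replicate 1 it was -0.04.

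Nfkb2, which encodes p100, the precursor of p52 and itself an inhibitor of RelB, had the largest fitted panobinostat effect of the set. It had 27.2 and 29.6 CPM in pDC under panobinostat, against 104 and 144 CPM in pDC under vehicle. In cDC it had 259 and 231 CPM under panobinostat, against 334 and 259 CPM under vehicle. The pDC groups did not overlap and the pDC panobinostat libraries, which differed in many other genes, lay close together here. The value was 4.37-fold lower under panobinostat in pDC, a log2 fold change of -2.13 ± 0.24, which did not pass the threshold in edgeR (unadjusted p = 7.82e-05, adjusted p = 0.0655). It passed in DESeq2 (-2.09 ± 0.30, adjusted p = 9.34e-10), in edgeR with no filter on low counts (-2.15, adjusted p = 0.0126), in edgeR without pDC panobinostat replicate 1 (-2.08 ± 0.30, adjusted p = 0.00231) and in edgeR without pDC panobinostat replicate 2 (-2.25 ± 0.32, adjusted p = 0.0226). Those 4 were the only calls among 17 alternatives. Over all alternatives the value stayed between -2.35 and -1.92, with adjusted p-values up to 0.973.

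In cDC the fitted difference of Nfkb2 was -0.28 ± 0.23 (edgeR adjusted p = 1). The effect in pDC minus that in cDC was -1.85 ± 0.32 (edgeR unadjusted p = 0.00102, adjusted p = 0.354), so the edgeR test did not separate the effects of the cell types. Of 16 alternatives, 2 called this difference. These were DESeq2 (-1.79 ± 0.42, adjusted p = 0.00265), beside 2.04% of all genes, and edgeR without pDC panobinostat replicate 1 (-1.81 ± 0.36). The latter fit called a large share of all genes. Over the alternatives the value lay between -2.08 and -1.62. Exons of Nfkb2 share 531 bases with a non-coding gene, AC114539.1, and 299 bases with Psd, both on the opposite strand, and whether the counting used strand is not stated. Psd itself had 39 and 26 reads in pDC under panobinostat, against 84 and 75 reads in pDC under vehicle.

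Between the cell types, Nfkb2 was 8.62-fold lower in pDC than in cDC under panobinostat (-3.11 ± 0.25, edgeR adjusted p = 0.00143), and this call held in 17 of 17 alternatives with values of -3.23 to -3.03. Under vehicle it was 2.39-fold lower in pDC (-1.26 ± 0.23, edgeR adjusted p = 0.0236). The vehicle call was lost without pDC vehicle replicate 1 (-1.04, edgeR adjusted p = 0.15), without pDC vehicle replicate 2 (-1.55, edgeR adjusted p = 0.067), without cDC vehicle replicate 1 (-1.05, edgeR adjusted p = 0.172) and without cDC vehicle replicate 2 (-1.43, edgeR adjusted p = 0.0873). It was lost as well without cDC panobinostat replicate 1 (-1.25, edgeR adjusted p = 0.0729) or replicate 2 (-1.25, edgeR adjusted p = 0.0732), which enter only through the shared estimate of the spread.

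Rela encodes p65, the main transactivating subunit of the canonical pathway. It had 63.4 and 24.9 CPM in pDC under panobinostat, against 114 and 115 CPM in pDC under vehicle. The cDC libraries had 97.8 and 89.0 CPM under panobinostat, against 87.7 and 96.4 CPM under vehicle. The pDC groups did not overlap, but the panobinostat pDC libraries were far from each other, and the cDC groups overlapped. The pDC difference was 2.59-fold lower under panobinostat (-1.37 ± 0.42, edgeR unadjusted p = 0.0152, adjusted p = 0.238) and was not called. It was called without pDC panobinostat replicate 1 (-2.21 ± 0.18, edgeR adjusted p = 0.000328) and without pDC panobinostat replicate 2 (-0.91 ± 0.17, edgeR adjusted p = 0.0449), with sizes that differed more than their errors. In cDC the value was 0.02 ± 0.41, and the pDC effect minus the cDC effect was -1.39 ± 0.58 (edgeR adjusted p = 0.644). Between pDC and cDC, Rela differed by -1.08 ± 0.41 under panobinostat (edgeR adjusted p = 0.122) and by 0.31 ± 0.41 under vehicle (edgeR adjusted p = 0.766). Under panobinostat it was called lower without pDC panobinostat replicate 1 (-1.91, edgeR adjusted p = 0.000341) and without pDC panobinostat replicate 2 (-0.62, edgeR adjusted p = 0.0343).

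Nfkb1, the gene of p105 and p50, had 145 and 148 CPM in pDC under panobinostat, against 215 and 200 CPM in pDC under vehicle. For cDC the levels were 390 and 346 CPM under panobinostat, against 367 and 290 CPM under vehicle. All 4 pDC libraries lay below all 4 cDC libraries, and within pDC the panobinostat libraries lay below the vehicle libraries. The fitted panobinostat difference was -0.50 ± 0.18 in pDC (edgeR unadjusted p = 0.0304, adjusted p = 0.288) and 0.16 ± 0.18 in cDC, with neither called. Nfkb1 was 2.51-fold lower in pDC than in cDC under panobinostat (-1.33 ± 0.18, edgeR adjusted p = 0.00785). That call was lost without cDC panobinostat replicate 1 (-1.25, edgeR adjusted p = 0.0785), without cDC panobinostat replicate 2 (-1.42, edgeR adjusted p = 0.0573) and with the 4 panobinostat libraries alone (-1.36, edgeR adjusted p = 0.0747). Under vehicle the difference was -0.67 ± 0.18 (edgeR adjusted p = 0.0706), called without pDC panobinostat replicate 1 (-0.66, edgeR adjusted p = 0.0304) or replicate 2 (-0.69, edgeR adjusted p = 0.029), and the test of the difference between the treatments gave -0.66 ± 0.25 (edgeR adjusted p = 0.605).

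Rel encodes c-Rel, a canonical subunit with known roles in lymphoid and myeloid cells. It had 58.3 and 29.2 CPM in pDC under panobinostat, against 55.5 and 47.8 CPM in pDC under vehicle. Levels in cDC were 109 and 134 CPM under panobinostat, against 145 and 114 CPM under vehicle. The treatments overlapped in both cell types, while all pDC libraries lay below all cDC libraries. Rel was 2.77-fold lower in pDC than in cDC under panobinostat (-1.47 ± 0.36, edgeR adjusted p = 0.0386), and under vehicle the value was -1.33 ± 0.36 (edgeR adjusted p = 0.0697). The vehicle value was called without pDC panobinostat replicate 1 (-1.32, edgeR adjusted p = 0.00384) or replicate 2 (-1.35, edgeR adjusted p = 0.00346). The panobinostat value was -2.06 without pDC panobinostat replicate 1 (edgeR adjusted p = 0.000944) and -1.12 without replicate 2 (edgeR adjusted p = 0.0165). The call under panobinostat was close to the threshold. In edgeR it was lost without cDC panobinostat replicate 1 (adjusted p = 0.147) or replicate 2 (adjusted p = 0.19), without pDC vehicle replicate 1 (adjusted p = 0.0788) or replicate 2 (adjusted p = 0.0758), without cDC vehicle replicate 1 (adjusted p = 0.0888) or replicate 2 (adjusted p = 0.0874), with scaling by library size only (adjusted p = 0.0623) and with the 4 panobinostat libraries alone (adjusted p = 0.168). The panobinostat difference in pDC was -0.24 ± 0.35 and changed sign with the library left out, at 0.12 without pDC panobinostat replicate 2 and -0.83 ± 0.25 without pDC panobinostat replicate 1 (edgeR adjusted p = 0.0298).

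**Figure D2:**
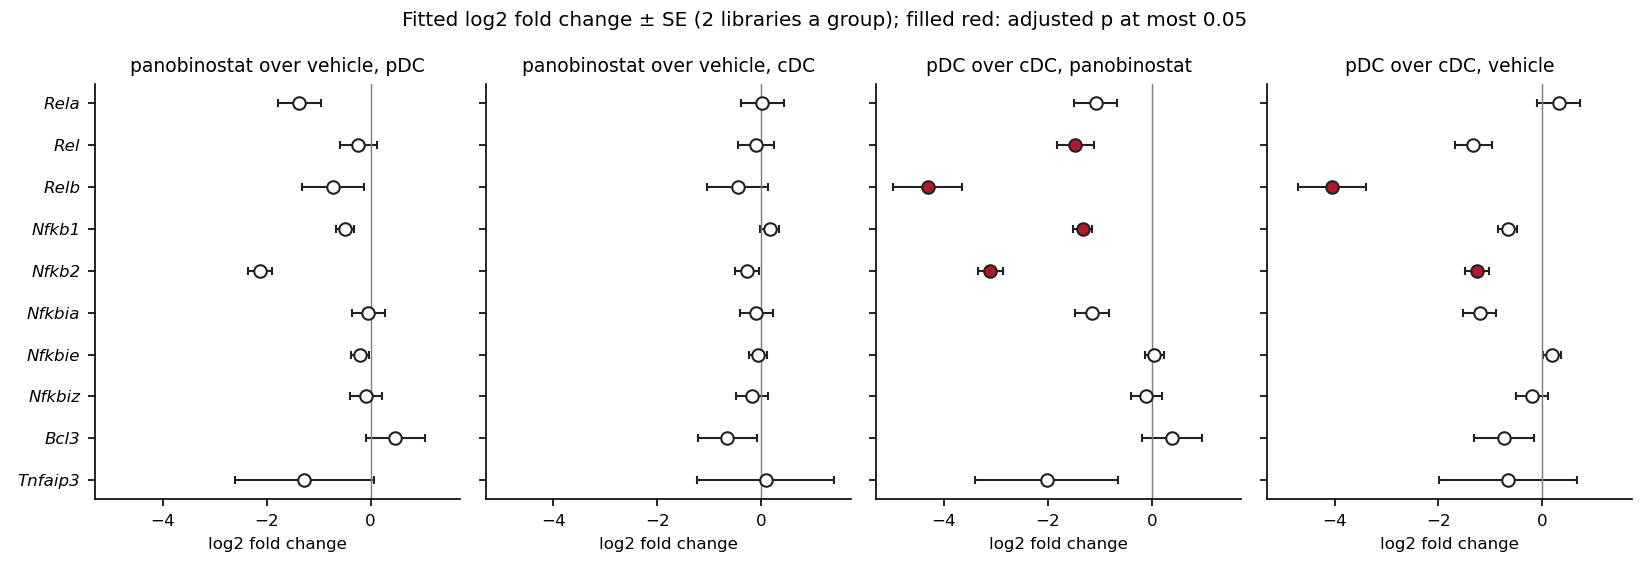
Fitted log2 fold changes with standard errors for panobinostat over vehicle in each cell type and for pDC over cDC under each treatment, with filled red points for genes at an adjusted p of at most 0.05. Red points appear only for pDC over cDC, at Nfkb1, Nfkb2, Rel and Relb under panobinostat and at Nfkb2 and Relb under vehicle.

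Per length of exon, the mix of subunit transcripts differed between the cell types. CPM per kb of exon allows levels of different genes to be compared, with exon lengths from GENCODE on mm10. The 5 subunit genes summed to 75.9 and 68.7 CPM per kb in pDC under panobinostat and 137 and 147 CPM per kb in pDC under vehicle, against 368 and 342 CPM per kb in cDC under panobinostat and 449 and 384 CPM per kb in cDC under vehicle. Every pDC library thus held less than every cDC library. Relb made up 4.14% and 18.5% of this sum in pDC under panobinostat and 7.62% and 10.7% in pDC under vehicle, against 43.8% and 44.7% in cDC under panobinostat and 51.0% and 52.4% in cDC under vehicle. Nfkb1 was the most abundant subunit in all 4 pDC libraries, with 46.4% and 52.3% under panobinostat and 38.2% and 33.0% under vehicle, whereas Relb was the most abundant in all 4 cDC libraries.

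Within pDC, the share of Nfkb2 was 8.49% and 10.2% under panobinostat, against 18.0% and 23.2% under vehicle. The ratio of Nfkb2 to Nfkb1, both per kb, was 0.183 and 0.195 in pDC under panobinostat, against 0.472 and 0.703 in pDC under vehicle, and 0.649 and 0.652 in cDC under panobinostat, against 0.889 and 0.873 in cDC under vehicle. The ratio was lower in both panobinostat libraries than in both vehicle libraries in each cell type, and 2 libraries a group allow no exact test of a single value to pass the threshold. The ratio of Relb to Rela was 0.135 and 1.38 in pDC under panobinostat, a wide spread between replicates, and 0.248 and 0.371 in pDC under vehicle. In cDC it was 4.47 and 4.66 under panobinostat, against 7.09 and 5.66 under vehicle.

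**Figure D3:**
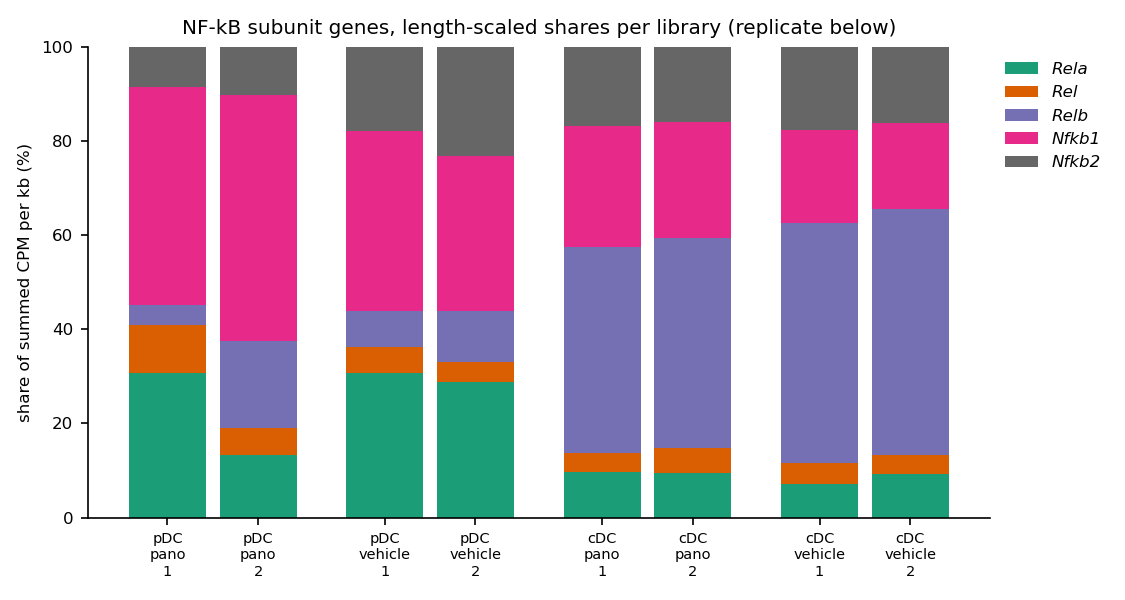
Share of each subunit gene in the summed CPM per kb of the 5 subunit genes, as stacked bars per library in percent. Relb fills 43.8% to 52.4% of the cDC bars and 4.14% to 18.5% of the pDC bars.

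Among the inhibitors, Nfkbia had the highest level per length of all 10 genes in every group. Its mean was 194 CPM per kb in pDC under panobinostat and 200 CPM per kb in pDC under vehicle, against 431 CPM per kb in cDC under panobinostat and 460 CPM per kb in cDC under vehicle. By library it had 283 and 329 CPM in pDC under panobinostat, against 219 and 412 CPM in pDC under vehicle. It had 618 and 742 CPM in cDC under panobinostat, against 665 and 789 CPM in cDC under vehicle. Treatments overlapped in both cell types, and all pDC libraries lay below all cDC libraries. The panobinostat difference was -0.04 ± 0.32 in pDC and -0.10 ± 0.32 in cDC, with neither called. Between pDC and cDC it was -1.15 ± 0.32 under panobinostat (edgeR adjusted p = 0.0553) and -1.21 ± 0.32 under vehicle (edgeR adjusted p = 0.0691). Both lay close to the threshold and passed in 8 of 17 alternatives under panobinostat and 10 of 17 under vehicle, among them DESeq2, limma-voom, RLE scaling, scaling by library size only and no filter on low counts, and under vehicle also without pDC panobinostat replicate 1 (-1.20, edgeR adjusted p = 0.0296) or replicate 2 (-1.22, edgeR adjusted p = 0.0299). Leaving out pDC vehicle replicate 1 or replicate 2 also gave a call under panobinostat (-1.16 or -1.22, edgeR adjusted p = 0.0386 or 0.0313), and leaving out replicate 2 gave one under vehicle (-1.77, edgeR adjusted p = 0.046). With the replicate number as a block, both passed in edgeR, at -1.15 ± 0.22 (adjusted p = 0.0296) under panobinostat and -1.25 ± 0.22 (adjusted p = 0.0316) under vehicle. Adjusted p-values over the alternatives were 0.00557 to 0.239 under panobinostat and 0.00249 to 0.314 under vehicle. Relative to the summed subunits per kb, Nfkbia stood at 2.36 and 3.03 in pDC under panobinostat and 1.02 and 1.78 in pDC under vehicle, against 1.07 and 1.37 in cDC under panobinostat and 0.938 and 1.3 in cDC under vehicle. The panobinostat pDC libraries had the highest ratios of the 8.

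Nfkbie encodes IkB-epsilon, an inhibitor that holds mainly RelA and c-Rel dimers. It had 146 and 184 CPM in pDC under panobinostat, against 182 and 199 CPM in pDC under vehicle. In cDC it had 158 and 162 CPM under panobinostat, against 173 and 161 CPM under vehicle. All 8 libraries lay within 146 to 199 CPM, the narrowest range of the set relative to its level. Its log2 difference was -0.20 ± 0.18 for panobinostat in pDC, -0.06 ± 0.18 for panobinostat in cDC, 0.05 ± 0.18 for pDC against cDC under panobinostat and 0.19 ± 0.18 for pDC against cDC under vehicle, none of them called.

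Nfkbiz and Bcl3 encode nuclear IkB proteins that bind p50 or p52 homodimers and can activate transcription as well as restrain it. Nfkbiz had 140 and 117 CPM in pDC under panobinostat, against 118 and 155 CPM in pDC under vehicle. The cDC levels were 143 and 132 CPM under panobinostat, against 200 and 112 CPM under vehicle. Every pair of groups overlapped, and its fitted log2 differences were between -0.19 and -0.09 in the 4 comparisons of 2 groups, none called. Bcl3 had the lowest mean of the 10 in each group, in CPM and per length. It had 7.19 and 6.69 CPM in pDC under panobinostat, against 5.25 and 4.76 CPM in pDC under vehicle, and the groups did not overlap. In cDC it had 6.41 and 4.18 CPM under panobinostat, against 9.46 and 7.2 CPM under vehicle, again without overlap but in the other direction. The log2 differences of Bcl3 were 0.47 ± 0.57 in pDC (edgeR adjusted p = 0.719) and -0.65 ± 0.57 in cDC (edgeR adjusted p = 1), so neither was called. Bcl3 shares 55 exon bases with an antisense gene.

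Tnfaip3, whose product A20 removes activating ubiquitin chains upstream of the IkB kinase, varied most between replicates. It had 77.8 and 1.49 CPM in pDC under panobinostat, from 1569 and 16 reads, against 57.0 and 136 CPM in pDC under vehicle. Its cDC levels were 138 and 186 CPM under panobinostat, against 134 and 171 CPM under vehicle. The pDC panobinostat replicate 2 was far below all other libraries, and the pDC groups overlapped. The fitted panobinostat difference in pDC was -1.28 ± 1.34 (edgeR adjusted p = 0.673), and it was -0.37 without pDC panobinostat replicate 2 and -6.03 ± 0.77 without pDC panobinostat replicate 1 (edgeR adjusted p = 0.00141). The value in cDC was 0.09 ± 1.32. Between pDC and cDC it was -2.02 ± 1.37 under panobinostat (edgeR adjusted p = 0.346) and -0.66 ± 1.33 under vehicle (edgeR adjusted p = 0.874). Under panobinostat the first of these was called without pDC panobinostat replicate 1 (-6.77, edgeR adjusted p = 0.000713).

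Groups without overlap were also counted. For panobinostat in pDC, 1 of the 10 genes lay higher without overlap (Bcl3) and 3 lay lower (Nfkb1, Nfkb2 and Rela), beside 15.7% and 26.5% of all genes, so these shares were near the background. In cDC, 0 lay higher and 3 lay lower (Nfkb2, Relb and Bcl3), beside 22.2% and 18.8% of all genes. Nfkb2 was the gene in both lower counts. In cDC, however, its closest panobinostat and vehicle libraries both rounded to 259 CPM. For pDC against cDC, 1 lay higher and 7 lower under panobinostat, beside 24.7% and 38% of all genes, and 2 lay higher and 6 lower under vehicle, beside 35.1% and 35.5%.

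The single pDC panobinostat libraries decided how many of the 10 genes were called for panobinostat in pDC. The count was 0 with all libraries, 4 without pDC panobinostat replicate 1 (Nfkb2, Rel, Rela and Tnfaip3, all lower) and 3 without pDC panobinostat replicate 2 (Nfkb2, Rela and Relb, all lower). Over all genes the count was 13 with all libraries, 8227 (55.3%) without replicate 1 and 719 (4.78%) without replicate 2, so 4 of 10 was below the background of its fit. Nfkb2 and Rela were lower with either library left out, whereas Rel, Relb and Tnfaip3 depended on which library remained. With 1 library left in a group, the test assumes that it varies like the other groups.

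**Figure D4:**
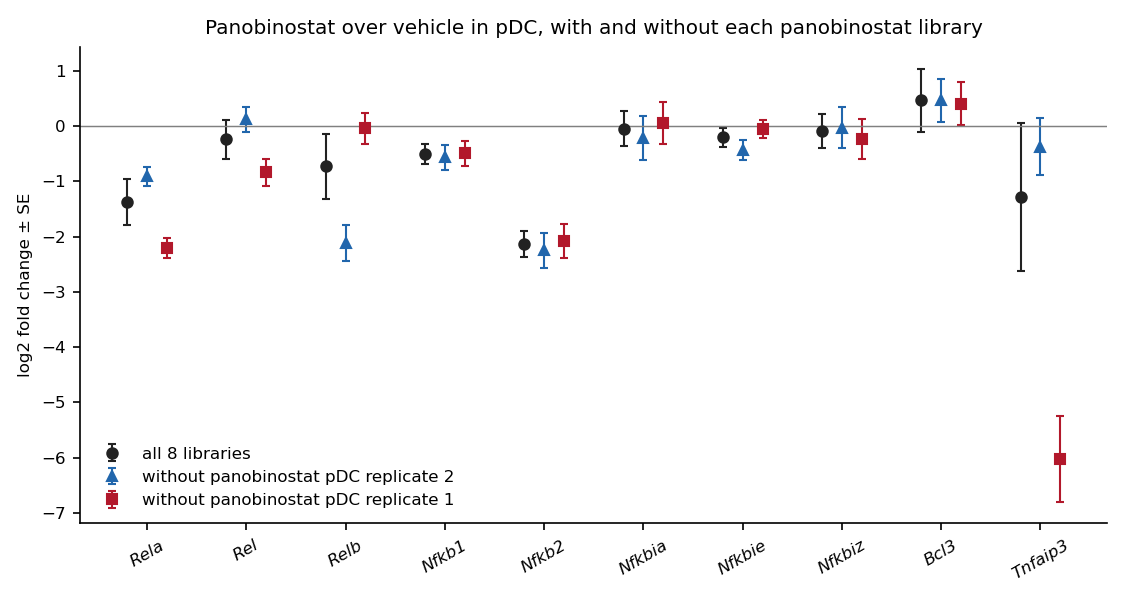
Fitted log2 fold change with standard error for panobinostat over vehicle in pDC, with all libraries and with each panobinostat library left out. Nfkb2 sits between -2.25 and -2.08 in the 3 fits, while Tnfaip3 ranges from -6.03 to -0.37.

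Of 42 other genes of the pathway (kinases, adaptors, ubiquitin enzymes and further inhibitors), edgeR called 0 for panobinostat in pDC and 0 in cDC. The shares of all genes called were 0.0913% and 0%. An unadjusted p of at most 0.05 in edgeR was reached by 9 and 2, beside 14.9% and 1.45% of all genes. In pDC 29 of the 42 had a value below 0, with a median of -0.36 beside -0.14 over all genes. The smallest p-value in pDC belonged to Rbck1, the HOIL-1 subunit of the linear ubiquitin ligase. It had 123 and 119 CPM in pDC under panobinostat, against 273 and 239 CPM in pDC under vehicle (-1.08 ± 0.16, edgeR adjusted p = 0.108). Its groups did not overlap. It was called by DESeq2 (adjusted p = 1.36e-05), without pDC panobinostat replicate 1 (-1.11, edgeR adjusted p = 0.00383) and without pDC panobinostat replicate 2 (-1.10, edgeR adjusted p = 0.0331). Without pDC panobinostat replicate 1, 5 of the pathway genes were called higher and 19 lower, beside 55.3% of all genes. Without replicate 2, 0 were called higher and 6 lower, beside 4.78% of all genes, and DESeq2 called 0 higher and 4 lower, beside 6.42%.

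Between pDC and cDC, 2 of the 42 pathway genes were higher and 8 lower in pDC under panobinostat, with a median of -0.46, and 1 was higher and 5 lower under vehicle, with a median of -0.23. These counts stand beside 18% and 9.73% of all genes called in either direction, which they are near. Traf1, a TNF receptor adaptor, had 17.5 and 54.3 CPM in pDC against 291 and 287 CPM in cDC under panobinostat, and 40.3 and 53.3 CPM in pDC against 427 and 374 CPM in cDC under vehicle. It was lower in pDC under panobinostat (-3.01 ± 0.52, edgeR adjusted p = 0.0155) and under vehicle (-3.10 ± 0.52, edgeR adjusted p = 0.0185). Traf1 was lost under panobinostat without cDC panobinostat replicate 1 (-3.01, edgeR adjusted p = 0.0843), without cDC panobinostat replicate 2 (-3.03, edgeR adjusted p = 0.0817) and with the 4 panobinostat libraries alone (-3.05, edgeR adjusted p = 0.126). Under vehicle it was lost without pDC vehicle replicate 1 (-2.90, edgeR adjusted p = 0.157) or replicate 2 (-3.36, edgeR adjusted p = 0.117), without cDC vehicle replicate 1 (-2.99, edgeR adjusted p = 0.105) or replicate 2 (-3.19, edgeR adjusted p = 0.0918) and without cDC panobinostat replicate 1 (-3.09, edgeR adjusted p = 0.0532) or replicate 2 (-3.09, edgeR adjusted p = 0.0535). Malt1, a paracaspase that signals with Bcl10, was lower in pDC under vehicle (-1.93 ± 0.38, edgeR adjusted p = 0.0304), a call lost without any library other than the pDC panobinostat ones (adjusted p = 0.0635 to 0.206) and with the replicate block (-1.93, edgeR adjusted p = 0.0539). Birc2, a ubiquitin ligase that restrains the non-canonical pathway, was lower in pDC under vehicle (-1.06 ± 0.18, edgeR adjusted p = 0.0177), again lost without any of those 6 libraries (adjusted p = 0.0651 to 0.154). Without either cDC panobinostat library, 0 pathway genes were called under panobinostat, and without pDC panobinostat replicate 1 or replicate 2 the counts were 8 higher and 24 lower or 1 higher and 14 lower, beside 65.9% or 36.1% of all genes. Under vehicle, fewer pathway genes were called without any 1 of the 6 libraries other than the pDC panobinostat ones. More were called without either pDC panobinostat library. Under both treatments the share of all genes called fell and rose in the same fits.

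Genes known as NF-kB targets were mostly lower in pDC than in cDC. Of 53 tested among 56, 3 were higher and 25 lower in pDC under panobinostat, and 1 was higher and 20 lower under vehicle, with medians of -3.01 and -2.54, beside 18% and 9.73% of all genes called in either direction. Ccr7, the chemokine receptor of migrating DC, had 33.5 and 42.6 CPM in pDC against 474 and 848 CPM in cDC under panobinostat (-4.12 ± 0.41, edgeR adjusted p = 0.00283), and 17.2 and 29.5 CPM in pDC against 884 and 917 CPM in cDC under vehicle (-5.27 ± 0.44, edgeR adjusted p = 0.00199). Cd83, a surface marker of mature DC, had 9.72 and 41.0 CPM in pDC against 763 and 1070 CPM in cDC under panobinostat (-5.18 ± 0.72, edgeR adjusted p = 0.00824). Sdc4, a heparan sulfate proteoglycan, was the exception among the genes named, at 268 and 272 CPM in pDC against 17.9 and 18.2 CPM in cDC under panobinostat (3.90 ± 0.18, edgeR adjusted p = 0.000548). Ccr7 under both treatments and Sdc4 were called in every alternative run, and Cd83 was lost with the 4 panobinostat libraries alone (-5.22, edgeR adjusted p = 0.102). The counts moved with single libraries. Under panobinostat, 6 were lower without cDC panobinostat replicate 1 or replicate 2, 15 without pDC vehicle replicate 1 or replicate 2, 11 without cDC vehicle replicate 1 or replicate 2, 42 without pDC panobinostat replicate 1 and 38 without its replicate 2, where the share of all genes called ran from 2.3% without cDC panobinostat replicate 1 to 65.9% without pDC panobinostat replicate 1. Under vehicle, 4 or 5 were lower without a vehicle library, 6 without a cDC panobinostat library, and 37 or 38 without pDC panobinostat replicate 1 or replicate 2, where that share ran from 1.92% without cDC vehicle replicate 1 to 37.2% without pDC panobinostat replicate 1. Many target genes are cell type markers as well, and several, such as Cd40 and Traf1, stand in more than 1 of the lists.

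For panobinostat against vehicle, edgeR called 0 of the 53 target genes in pDC and 0 in cDC, beside 0.0913% and 0% of all genes. An unadjusted p of at most 0.05 in edgeR was reached by 13 and 2, beside 14.9% and 1.45% of all genes. The medians were -0.20 and -0.0056, beside -0.14 and 0.0028 over all genes. In pDC 21 of the 53 had a value above 0 and 31 below 0. Ccl3, a chemokine, had 36.6 and 41.5 CPM in pDC under panobinostat, against 7.11 and 9.79 CPM in pDC under vehicle, without overlap (2.21 ± 0.45, edgeR adjusted p = 0.149). Plau ranked next by p in pDC and was lower under panobinostat without overlap (edgeR adjusted p = 0.159). The mean log2 CPM of Plau over the 8 libraries was low, at -1.155. In cDC, Sdc4 had 17.9 and 18.2 CPM under panobinostat, against 30.8 and 27.3 CPM under vehicle (-0.68 ± 0.16, edgeR adjusted p = 1). Ccl3 was called by DESeq2 (adjusted p = 0.000394) and without pDC panobinostat replicate 1 (2.29, edgeR adjusted p = 0.00733). Without pDC panobinostat replicate 1, 13 of the target genes were called higher and 15 lower in pDC, beside 55.3% of all genes. Without replicate 2, 0 were called higher and 2 lower, beside 4.78%, and DESeq2 called 1 higher and 3 lower, beside 6.42%.

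Of the 26 receptor and ligand genes upstream of NF-kB, 24 were tested. In pDC against cDC, 1 was higher and 6 were lower under panobinostat, and 1 was higher and 5 were lower under vehicle, with medians of -1.94 and -1.76, again beside 18% and 9.73% of all genes. Tlr7, the endosomal receptor for single-stranded RNA and a pDC marker, was the higher gene, with 291 and 463 CPM in pDC against 19.9 and 28.8 CPM in cDC under panobinostat (3.95 ± 0.43, edgeR adjusted p = 0.00361) and 289 and 333 CPM in pDC against 19.0 and 35.7 CPM in cDC under vehicle (3.51 ± 0.42, edgeR adjusted p = 0.00569). Among the lower genes, Cd40, the receptor for CD40 ligand and a driver of the non-canonical pathway, had 8.42 and 16.2 CPM in pDC against 96.7 and 121 CPM in cDC under vehicle (-3.14 ± 0.67, edgeR adjusted p = 0.0368), a call lost without any of the 6 libraries other than the pDC panobinostat ones (adjusted p = 0.0905 to 0.23). Tnfrsf1b, the TNF receptor 2 gene, had 26.9 and 7.06 CPM in pDC against 83.8 and 121 CPM in cDC under panobinostat (-2.59 ± 0.60, edgeR adjusted p = 0.035), a call lost without any of the same 6 libraries (adjusted p = 0.0737 to 0.163), with the 4 panobinostat libraries alone (adjusted p = 0.175) and with the replicate block (-2.70, edgeR adjusted p = 0.0511). The lower genes numbered 1 to 3 under panobinostat and 1 under vehicle without any of these 6 libraries, against 15 and 15 without pDC panobinostat replicate 1 and 13 and 15 without pDC panobinostat replicate 2, with all-gene shares that ran from 2.3% to 65.9% and from 1.92% to 37.2%. Tlr7 was called in every alternative run. For panobinostat against vehicle, edgeR called 0 of the 24 in pDC and 0 in cDC, beside 0.0913% and 0% of all genes. An unadjusted p of at most 0.05 in edgeR was reached by 6 and 0, beside 14.9% and 1.45% of all genes. In pDC, DESeq2 called 2 higher and 1 lower, beside 6.42% of all genes. The edgeR count in pDC changed when either pDC panobinostat library was left out. Il18, a cytokine gene of the IL-1 family, had 10.9 and 23.4 CPM in pDC under panobinostat, against 2.32 and 1.73 CPM in pDC under vehicle, without overlap (3.08 ± 0.55, edgeR adjusted p = 0.132). It was called by DESeq2 (adjusted p = 1.01e-06), without pDC panobinostat replicate 1 (3.52, edgeR adjusted p = 0.000203) and without pDC panobinostat replicate 2 (2.37, edgeR adjusted p = 0.016). In cDC it had 28.5 and 28.4 CPM under panobinostat, against 16.7 and 17.7 CPM under vehicle (0.72 ± 0.51, edgeR adjusted p = 1). Il1b ranked next by p in pDC and was lower under panobinostat without overlap (edgeR adjusted p = 0.163). The mean log2 CPM of Il1b over the 8 libraries was 1.97. Of the 24 genes, 14 had a value above 0 and 9 below 0 for panobinostat in pDC.

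**Figure D5:**
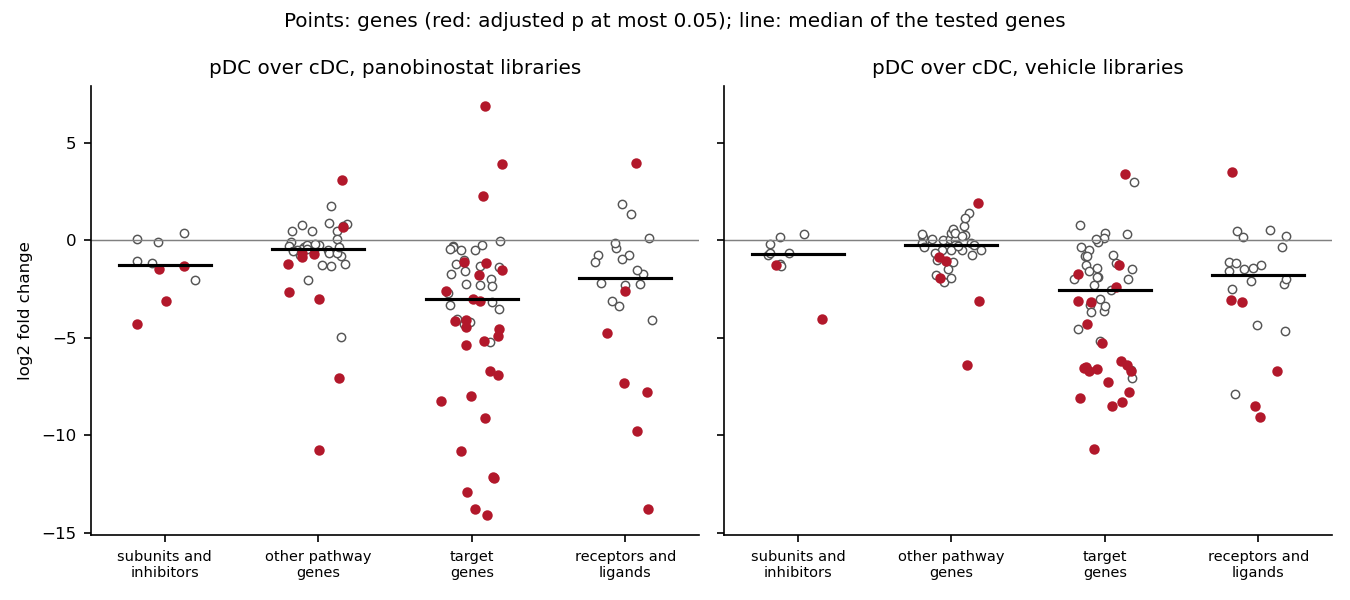
Log2 fold changes of pDC over cDC under panobinostat and under vehicle for the 10 subunit and inhibitor genes, 42 other pathway genes, 53 target genes and 24 receptor and ligand genes, with a line at the median and red points at an adjusted p of at most 0.05. The target genes lie lowest, with medians of -3.01 under panobinostat and -2.54 under vehicle.

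The order of the 10 genes by CPM per kb differed between the cell types, with the widest shift in rank for Relb. In pDC under panobinostat it ran Nfkbia at 194, Nfkbie at 67.8, Nfkb1 at 35.5, Nfkbiz at 31.0, Rela at 16.2, Tnfaip3 at 8.61, Relb at 7.92, Nfkb2 at 6.72, Rel at 5.86 and Bcl3 at 3.75, and the neighbours from Rela down to Rel overlapped. In pDC under vehicle it ran Nfkbia at 200, Nfkbie at 78.2, Nfkb1 at 50.3, Rela at 42.1, Nfkbiz at 33.0, Nfkb2 at 29.4, Tnfaip3 at 21.0, Relb at 13.1, Rel at 6.92 and Bcl3 at 2.71, and the neighbours from Nfkbiz down to Relb overlapped. Relb was thus among the lower genes in pDC.
In cDC under panobinostat the order was Nfkbia at 431, Relb at 157, Nfkb1 at 89.2, Nfkbie at 65.7, Nfkb2 at 58.0, Tnfaip3 at 35.2, Rela at 34.4, Nfkbiz at 33.2, Rel at 16.2 and Bcl3 at 2.86, with overlap from Tnfaip3 down to Nfkbiz. In cDC under vehicle it was Nfkbia at 460, Relb at 215, Nfkb1 at 79.7, Nfkb2 at 70.2, Nfkbie at 68.5, Nfkbiz at 37.7, Rela at 33.9, Tnfaip3 at 33.2, Rel at 17.4 and Bcl3 at 4.5, with overlap from Nfkb1 down to Nfkbie and from Nfkbiz down to Tnfaip3. Relb stood behind Nfkbia alone in cDC.

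Likeness of patterns was measured as the root mean square difference of log2 CPM over the 8 libraries after each gene's mean was subtracted, among genes whose log2 CPM averaged 3 or more. Of 8285 genes compared, those closest to Nfkbia were Uap1 (0.129), Bri3bp (0.169) and Snx3 (0.173). Those closest to Rel were Phtf2 (0.0848), Dnmt3a (0.143) and Rab8b (0.146). For Relb, which ranged from 2.82 to 8.98 log2 CPM, the closest were Shtn1 (0.416), Hlx (0.588) and Traf1 (0.617). The measure was not scaled to each gene's spread, so genes that vary widely give larger values and flat genes smaller ones. Values of different members therefore do not rank how closely other genes follow them. Within the set, Nfkbie and Nfkbiz were closest to each other at 0.278, and Relb was farthest from Tnfaip3 and Nfkbie, at 2.29 each. The libraries behind these values are the same 8 throughout.

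On mm10 (GRCm38), Nfkb1 (Entrez gene 18033) lies at chr3:135584655-135691969 on the minus strand, Nfkb2 (18034) at chr19:46300994-46312400 on the plus strand, Rel (19696) at chr11:23736847-23770969 on the minus strand, Rela (19697) at chr19:5637442-5648134 on the plus strand and Relb (19698) at chr7:19606217-19629438 on the minus strand. Nfkbia (18035) lies at chr12:55489409-55492647 on the minus strand, Nfkbie (18037) at chr17:45555700-45563169 on the plus strand, Nfkbiz (80859) at chr16:55811375-55838954 on the minus strand, Tnfaip3 (21929) at chr10:19000910-19015410 on the minus strand and Bcl3 (12051) at chr7:19808462-19822824 on the minus strand. Relb and Bcl3 thus lie near each other on chromosome 7, and their levels in cDC differed widely.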

How the data were processed

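RNA sequencing was done on 8 libraries in 4 groups of 2, grouped by the sample titles. Per the submitters' processing notes, the authors used bcl2fastq (2.17.1.14), FastQC (0.11.6), cutadapt (2.1), HISAT2 (2.1.0) on mm10, featureCounts of Subread (2.0.0) and limma. The deposited values are whole-number read counts per Entrez gene, with 0 columns left without a sample. Columns marked LBH were read as panobinostat and those marked D5W as vehicle. The sources used here state neither strandedness nor the annotation nor how multi-mapping reads were counted. Symbols matched 25275 of the 27179 IDs, all 10 members among them.

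The counts were analysed in R (4.3.3) with edgeR (4.0.16). The default filter of filterByExpr (minimum count 10, minimum total 15) left 14238 genes. All 8 libraries were scaled by TMM and fitted with 1 coefficient per group (4 residual and 2.3 prior degrees of freedom). Quasi-likelihood tests were adjusted by Benjamini-Hochberg over all genes, with a threshold of 0.05. Standard errors were derived from the F statistic. Reads carry no recorded molecular identifiers, and 13124861 to 20657429 reads per library set the counting precision. The design text calls the 2 libraries of a group biological replicates. Scripts were tested on simulated data.

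The members and the gene lists were chosen with earlier results of these data known. All 10 members were named in every comparison. From each list and comparison, at most the 4 called genes with the smallest p and a mean log2 CPM of at least 3 could be named, or the 2 with the smallest p where none was called, and a few of these were left out of the text. Genes at 0 reads in a group were given no fold. Alternatives were other scalings, filters, DESeq2 (1.42.0), limma-voom (limma 3.58.1), a replicate block, fewer libraries, and leaving out each library. The main fit did not pair libraries by the replicate numbers of the labels, and the replicate block was run only as an alternative. Differences between replicates 1 and 2 correlated across genes in each of the 6 pairs of groups (0.15 to 0.49). Which animals share a replicate number is not stated.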

Additional observations from a re-analysis of the deposited data

Results flagged for a closer look

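Bcl3, the gene of a nuclear IkB protein, had both pDC panobinostat libraries (7.19 and 6.69 CPM) above both pDC vehicle libraries (5.25 and 4.76 CPM), and both cDC panobinostat libraries (6.41 and 4.18 CPM) below both cDC vehicle libraries (9.46 and 7.2 CPM). The panobinostat effect in pDC minus that in cDC was 1.12 ± 0.81 on the log2 scale, and edgeR's test of this difference did not pass (adjusted p = 0.818).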

How the results depend on the processing

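With 2 libraries a group, leaving out 1 library in turn moved the members called from 0 to between 0 and 4 for panobinostat in pDC, from 0 to between 0 and 3 for the effect in pDC minus that in cDC, from 4 to between 1 and 6 for pDC against cDC under panobinostat and from 2 to between 0 and 5 under vehicle. The highest counts came from fits without a pDC panobinostat library, where the share of all genes called was also highest. The lowest came from fits that called small shares of all genes. For panobinostat in pDC, 1 member was called with no filter (0.3% of all genes) and 1 with DESeq2 (6.42%). DESeq2 also called 1 for the difference of the effects (2.04% of all genes). For pDC against cDC under vehicle, DESeq2 called 5, limma-voom 4 and the 4 vehicle libraries alone 4, against 2 as reported, while the share of all genes called was 20.2%, 13.9% and 32.8%, against 9.73%. The 4 panobinostat libraries alone called 1 under panobinostat, against 4, with 1.21% of all genes against 18%. For panobinostat in cDC, 0 members were called under every alternative run. With the replicate block, 5 members were called under panobinostat and 3 under vehicle, beside 16.2% and 8.72% of all genes. Both counts included Nfkbia and the members called without the block. The block moved the all-gene count for panobinostat in pDC from 13 to 0. The fits of single treatments were chosen after seeing the data. Scaling by library size only moved the median over all genes from -0.14 to -0.28 in pDC and from 0.0028 to -0.13 in cDC. It moved the members' medians to -0.54 and -0.24. For the difference of the effects the members' median was -0.21, and -0.42 with limma-voom, beside -0.13 and -0.34 over all genes. Without pDC vehicle replicate 1 that median was -0.45, beside -0.14 over all genes. For pDC against cDC under vehicle, the members' median was -0.70 with all libraries and -0.99 without pDC vehicle replicate 2. Values near 0 that were never called changed sign. For Nfkbia in pDC the panobinostat effect was 0.0042 with RLE, 0.0029 with upper quartile scaling, 0.0042 with DESeq2, 0.019 with limma-voom, 0.0052 with the replicate block and -0.44 to 0.45 with 1 library left out. Nfkbie in pDC against cDC under panobinostat was -0.022 with RLE, -0.063 with library size only, -0.023 with DESeq2 and -0.18 to 0.20 with 1 library left out. In cDC the panobinostat effect of Rela was -0.0034 with upper quartile scaling and -0.11 with library size only, and that of Tnfaip3 was -0.054 with library size only. With 1 library left out, effects in cDC ranged from -0.23 to 0.034 for Nfkbia, -0.12 to 0.00043 for Nfkbie, -0.54 to 0.30 for Nfkbiz, -0.25 to 0.096 for Rel, -0.045 to 0.092 for Rela and -0.14 to 0.29 for Tnfaip3, and in pDC from -0.29 to 0.080 for Nfkbiz and -0.83 to 0.12 for Rel. The effect in pDC minus that in cDC ranged from -0.35 to 0.56 for Nfkbia, -0.35 to 0.0049 for Nfkbie, -0.40 to 0.44 for Nfkbiz, -0.74 to 0.24 for Rel and -1.64 to 0.41 for Relb, and pDC against cDC under vehicle from -0.55 to 0.29 for Nfkbiz. The causes were not tested.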
